A study of Mus musculus with 8 samples.

Results

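The levels of 10 genes were followed in mouse dorsal root ganglia with and without axotomy: the 3 heavy chains of non-muscle myosin II (Myh9, Myh10 and Myh14), 3 of its light chains (Myl6, Myl12a and Myl12b), 3 kinases of its regulatory light chain (Mylk, Rock1 and Rock2) and Avil, the gene that gives its name to the Cre driver. They were chosen by name, as the motor targeted by the knockout together with the driver gene, at a time when results of these data were known. All 10 were found among the 21878 rows of the deposited expression table, and all 10 were among the 12884 genes that reached 1 FPKM in at least 2 of the 8 libraries and were tested.

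All mice were C57BL/6 and all carried loxP-flanked (floxed) alleles of Myh9 and Myh10. The WT groups carried these alleles without Cre, and the dKO groups carried them together with Advillin-Cre. Each genotype received either a sham operation or a cut through the sciatic nerve (axotomy, called SNI in the sample names), and RNA was taken from lumbar ganglia L4 and L5 at day 3. This gave 4 groups of 2 libraries, named WT sham and dKO sham, WT SNI and dKO SNI. The labels give neither ages nor the number of animals in a library, and do not say whether replicate libraries stem from different mice. The p-values therefore reflect the variation among these libraries, which may be technical. Nor do the labels say whether Cre sits in the Avil gene itself or in a transgene elsewhere, or which exons are floxed. The values are given per gene, so loss of the floxed exons cannot be read from them. A level of Myh9 or Myh10 is therefore not the amount of intact transcript. Cre is expected only in cells that use Advillin, so the other cells of the ganglion keep both myosin genes.

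Non-muscle myosin II is a hexamer of 2 heavy chains and 2 pairs of light chains that pulls on actin filaments. The heavy chain decides the isoform: Myh9 gives IIA, Myh10 gives IIB and Myh14 gives IIC. IIA is abundant in blood, immune and connective tissue cells, and IIB in neurons, where myosin II drives the retrograde flow of actin in growth cones. The motor is switched on when its regulatory light chain (Myl12a or Myl12b) is phosphorylated, by myosin light chain kinase (Mylk) or by the kinases ROCK1 and ROCK2, which also block the phosphatase. Advillin is an actin-binding protein of the villin and gelsolin family that is typical of peripheral sensory neurons.

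Values are FPKM, that is, fragments scaled to transcript length and library size, so levels can be set side by side between genes. A change is given as a difference on the log2(FPKM + 1) scale, which makes the change of low genes look smaller than it is, with the standard error from limma after ±. "Called" means a Benjamini-Hochberg adjusted p under 0.05 over the 12884 genes, and n is 2 libraries a group throughout.

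In GRCm38 the heavy chain genes lie on chromosome 15 (Myh9, ENSMUSG00000022443.17, 77760587 to 77842175, minus strand), chromosome 11 (Myh10, ENSMUSG00000020900.15, 68691559 to 68816632, plus strand) and chromosome 7 (Myh14, ENSMUSG00000030739.18, 44605803 to 44670843, minus strand). Avil (ENSMUSG00000025432.11) lies on the plus strand of chromosome 10, from 127000709 to 127020994. All are annotated as protein-coding. The 250 bases before the annotated start are given for Avil, since Cre is named after it, and for Myh9, since these were the pair of the 10 genes called lower in dKO after sham surgery. Both come from the RefSeq promoter table for GRCm38.p6 and run 5′ to 3′ on the gene's own strand. No letters are in capitals because none of the 4 motifs searched on both strands (the CArG box of serum response factor, TAATTA of homeodomain factors, TGANTCA of AP-1 and TGACGTCA of CREB) was found in either window.
Avil, chr10:127000459-127000708, plus strand: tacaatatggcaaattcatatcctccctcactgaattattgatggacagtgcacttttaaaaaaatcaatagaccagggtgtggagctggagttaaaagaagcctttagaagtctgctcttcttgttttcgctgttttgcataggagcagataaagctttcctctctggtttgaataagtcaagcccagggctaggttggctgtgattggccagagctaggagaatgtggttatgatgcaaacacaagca
Myh9, chr15:77842176-77842425, minus strand: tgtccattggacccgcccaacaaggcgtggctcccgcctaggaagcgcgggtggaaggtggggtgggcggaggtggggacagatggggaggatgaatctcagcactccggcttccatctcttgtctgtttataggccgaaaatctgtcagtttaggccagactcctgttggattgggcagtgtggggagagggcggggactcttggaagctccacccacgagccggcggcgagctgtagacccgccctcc
The windows differ in base composition. The Avil window has 42.0% G and C with 1 CpG, against 62.4% and 14 CpG in the Myh9 window. Over 32851 promoter windows of this length the median was 52.4% with 6 CpG. Of the other 8 genes, the windows of 7 were read, and Rock1 was left out of the search. The Myl12a and Mylk windows each held TGANTCA, a match found in 6.75% of all windows. Myl6 has 2 annotated starts. Its windows held TGACGTCA (1.55% of all windows) and a CArG box (1.47%). TAATTA (4.84%) was in no window of the genes read. Annotated exons of Myl6 cover 151 of the 250 bases of its window with TGACGTCA and all 250 of that with the CArG box. Exons of the gene itself cover 133 bases of the Myl12a window and 29 of the Mylk window. These are matches of letters, not measured sites.

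Before the results, several facts about the libraries are needed. The Y-linked genes Ddx3y, Eif2s3y, Kdm5d and Uty measured 2.10 to 17.8 FPKM in the WT sham and dKO SNI libraries and 0 to 0.0109 FPKM in the WT SNI and dKO sham libraries. Each comparison of 2 groups, and the difference between the injury responses, therefore cannot be told apart from this division. The means over genotype or over surgery hold 1 group of each kind on either side. WT sham 2 also contained skeletal muscle RNA (Ckm at 138 FPKM, against 0.24 to 3.17 in the other 7 libraries). The tissue label was checked against the sensory neuron gene Prph, which measured 299 to 699 FPKM. Cell type markers moved with the groups. The summed level of 20 sensory neuron markers was 3022 to 4346 FPKM in dKO SNI, 5672 to 7377 in WT SNI, 6822 to 7733 in dKO sham and 7496 to 8345 in WT sham. In the same order, 12 macrophage markers summed to 1449 to 1545, 593 to 817, 190 to 304 and 165 to 172 FPKM. For 10 neutrophil markers the sums were 6885 to 7072, 1268 to 2507, 692 to 1117 and 707 to 951 FPKM, and for 8 fibroblast markers 1092 to 1385, 576 to 877, 448 to 570 and 212 to 309 FPKM. No marker of these 4 lists was listed at 0 in any library. In bulk tissue, fewer cells of a type and less RNA per cell cannot be told apart.

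**Figure D1:**
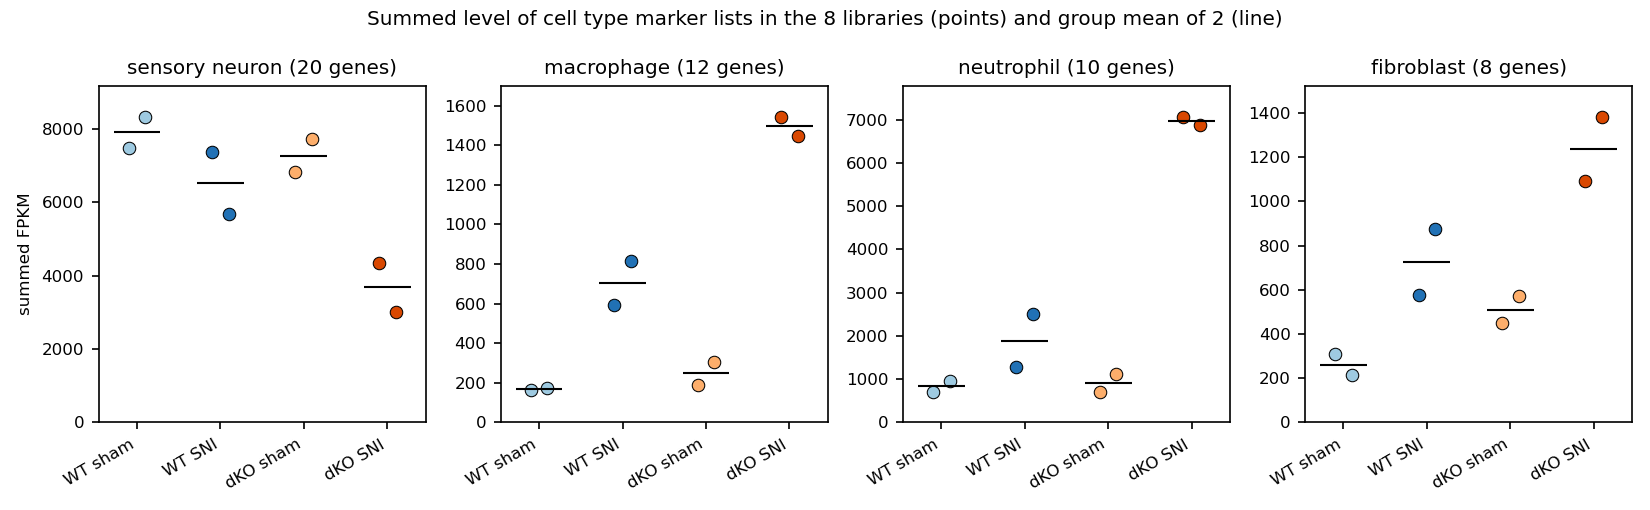
Summed FPKM of the sensory neuron, macrophage, neutrophil and fibroblast marker lists in each of the 8 libraries (points), with the mean of each group of 2 (line). The neuron sum is lowest in the 2 dKO SNI libraries (3022 and 4346), where the macrophage, neutrophil and fibroblast sums are highest.

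Myh9 was the heavy chain with the clearest genotype difference in uninjured ganglia, and that difference was far smaller 3 days after axotomy. It measured 27.2 and 31.6 FPKM in WT and 10.9 and 12.1 in dKO after sham surgery, and 30.8 and 29.7 in WT and 24.6 and 24.4 in dKO after axotomy. The dKO sham libraries stand alone at the bottom, while dKO SNI lies just below the 4 WT libraries. The dKO mean was 39.2% of the WT mean after sham surgery (change -1.28 ± 0.13, adjusted p 0.00435, seventh smallest p of all genes) and 80.9% after axotomy (-0.29 ± 0.13, adjusted p 0.113, 95% interval -0.58 to -0.01). Within dKO, Myh9 rose after axotomy (1.03 ± 0.13, adjusted p 2.95e-04). In WT the injury change was 0.04 ± 0.13 (adjusted p 0.823, interval -0.24 to 0.33). The difference between these injury responses was 0.98 ± 0.18, with an unadjusted p of 3.29e-04 (the 19th smallest of all genes) and an adjusted p of 0.193, so it did not pass the threshold. Averaged over surgery, Myh9 was lower in dKO by 0.79 ± 0.09 (log2 change -0.79, adjusted p 0.00972). The sham call rests narrowly on WT sham 2, the library with muscle RNA: without it the change was -1.17 and the adjusted p 0.0507.

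Myh10 followed another course. It measured 18.1 and 23.5 FPKM in WT and 12.2 and 14.4 in dKO after sham surgery, and 13.8 and 10.4 in WT and 5.31 and 4.12 in dKO after axotomy. WT sham was highest and dKO SNI lowest, and the WT SNI and dKO sham libraries overlapped between them. The dKO mean was 64.0% of WT after sham surgery (-0.60 ± 0.18, adjusted p 0.299, interval -1.01 to -0.19) and 39.0% after axotomy (-1.19 ± 0.18, adjusted p 0.00929). Myh10 fell after axotomy in both genotypes, by 0.74 ± 0.18 in WT (log2 change -0.74, adjusted p 0.0207) and by 1.33 ± 0.18 in dKO (-1.33, adjusted p 5.26e-04). The difference of -0.59 ± 0.26 between the 2 falls was not called (adjusted p 0.342). The call after axotomy was lost without WT SNI 1 (adjusted p 0.0734) or dKO SNI 2 (0.0729). In WT the injury call was lost without WT sham 2 (0.161) or WT SNI 2 (0.148), and without the filter on low values (0.0540).

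Myh14, the heavy chain that carries no floxed allele here, fell after axotomy as Myh10 did. Its values were 12.1 and 15.0 FPKM in WT and 11.1 and 12.7 in dKO after sham surgery, and 8.29 and 5.95 in WT and 5.10 and 3.64 in dKO after axotomy. The sham libraries of the 2 genotypes overlapped, and each SNI library lay below every sham library. The fall was -0.85 ± 0.19 in WT (adjusted p 0.0128; 0.101 without WT sham 2 and 0.0994 without WT SNI 2) and -1.27 ± 0.19 in dKO (7.43e-04). Between genotypes the change was -0.17 ± 0.19 after sham surgery (adjusted p 0.759, interval -0.60 to 0.26) and -0.60 ± 0.19 after axotomy. The latter was called at an adjusted p of 0.0481 and was lost in 10 of 18 alternatives, with 0.291 without WT SNI 1 and 0.298 without dKO SNI 2.

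Because FPKM is scaled to length, the 3 heavy chain genes can be added up. Their sum was 57.4 and 70.0 FPKM in WT and 34.3 and 39.1 in dKO after sham surgery, and 52.8 and 46.1 in WT and 35.0 and 32.1 in dKO after axotomy. The dKO sums are alike after sham surgery and after axotomy, but their make-up is not. Myh9 made up 47.3 and 45.1% of the sum in WT and 31.9 and 30.9% in dKO after sham surgery, and 58.2 and 64.5% in WT and 70.2 and 75.9% in dKO after axotomy. Its share was thus lowest in dKO sham and highest in dKO SNI. Myh10 relative to Myh14 divided the genotypes whatever the surgery. The ratio was 1.49 and 1.57 in WT and 1.10 and 1.13 in dKO after sham surgery, and 1.66 and 1.75 in WT and 1.04 and 1.13 in dKO after axotomy. These sums and ratios were formed after the members were known and are given as descriptions, without a test. Macrophage, neutrophil and fibroblast markers were highest in dKO SNI, where the Myh9 share was highest. Their part in the Myh9 level was not tested.

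**Figure D2:**
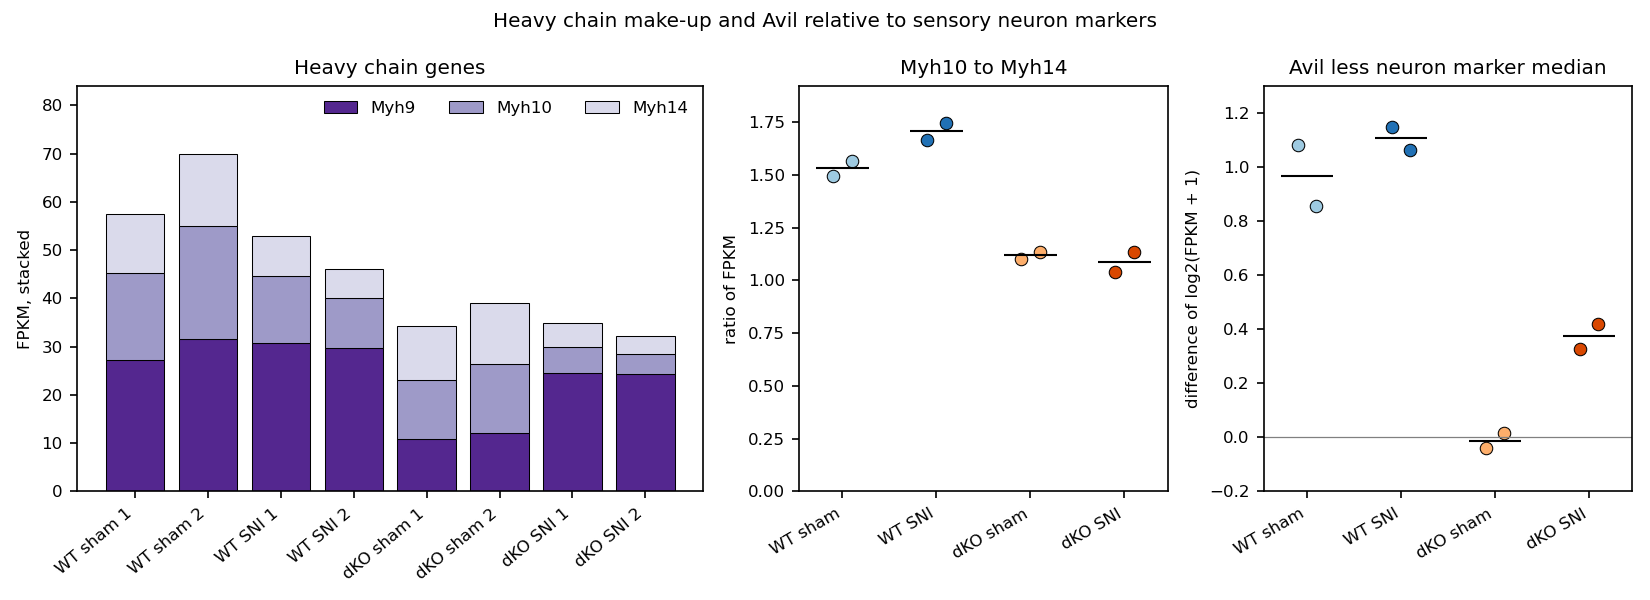
Left, FPKM of Myh9, Myh10 and Myh14 stacked for each library; middle, the ratio of Myh10 to Myh14; right, Avil less the median of 20 sensory neuron markers on the log2(FPKM + 1) scale (points are libraries, lines group means of 2). Myh9 makes up 30.9 to 31.9% of the stack in dKO sham and 70.2 to 75.9% in dKO SNI, and both the ratio and the relative Avil level are lower in every dKO library than in every WT library.

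Avil had the most regular pattern of the 10 genes. It measured 172 and 180 FPKM in WT and 75.3 and 80.0 in dKO after sham surgery, and 143 and 112 in WT and 44.1 and 34.5 in dKO after axotomy. WT sham was highest, followed by WT SNI, then dKO sham and last dKO SNI, with no overlap, so both dKO groups lie below both WT groups. The dKO mean was 44.1% of WT after sham surgery (-1.17 ± 0.17, adjusted p 0.0380) and 30.9% after axotomy (-1.67 ± 0.17, adjusted p 0.00427). Averaged over surgery the change was -1.42 ± 0.12 (adjusted p 0.00261), the second smallest p of the 12884 genes in that comparison. The sham call was lost without any 1 of the 4 libraries it compares (adjusted p 0.110 to 0.258) and without the filter on low values (0.179), with changes between -1.21 and -1.13 in the former. The call after axotomy and the averaged call held under every alternative. After axotomy Avil changed by -0.47 ± 0.17 in WT (adjusted p 0.0725, not called) and fell by 0.97 ± 0.17 on the log2 scale in dKO (adjusted p 0.00167). The difference between these responses, -0.50 ± 0.24, was not called (adjusted p 0.365).

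Because the neuron markers moved with the groups, the levels of Avil, Myh9, Myh10 and Myh14 were also set against the median of the 20 neuron markers in the same library. In which cells of the ganglion these genes were expressed cannot be read from bulk values. The neuron median itself was lower in dKO than in WT, by 0.19 after sham surgery (log2 difference -0.19) and by 0.94 after axotomy (-0.94). On the log2(FPKM + 1) scale Avil stood 1.08 and 0.86 above that median in WT sham and 1.15 and 1.06 above it in WT SNI. In dKO it stood at -0.04 and 0.02 after sham surgery and at 0.33 and 0.42 after axotomy. Measured this way, the difference between the dKO and WT means of Avil was -0.98 after sham surgery and -0.73 after axotomy, beside -1.17 and -1.67 for Avil itself. Myh10 stood below the neuron median by more in dKO: the differences were -2.10 and -2.03 in WT and -2.57 and -2.38 in dKO after sham surgery, and -2.13 and -2.24 in WT and -2.51 and -2.38 in dKO after axotomy. The 4 dKO libraries lie below the 4 WT libraries on this measure, but the difference of the means was -0.41 after sham surgery and -0.25 after axotomy, beside -0.60 and -1.19 for Myh10 itself. WT SNI lies slightly below WT sham, and the dKO groups overlap. Myh14 shows no such division, with differences of -2.96 to -2.64 in the WT libraries and -2.70 to -2.52 in the dKO libraries. The difference between its dKO and WT means was 0.02 after sham surgery and 0.34 after axotomy, beside -0.17 and -0.60 for Myh14 itself. After axotomy both dKO libraries (-2.56 and -2.52) lie above both WT libraries (-2.81 and -2.96). For Myh9 the difference of the means was -1.09 after sham surgery and 0.64 after axotomy, beside -1.28 and -0.29 for Myh9 itself. Of the 20 neuron markers, none was called in dKO sham against WT sham (1 had an unadjusted p under 0.05), and 12 were lower and none higher in dKO SNI against WT SNI, where 13.4% of all tested genes were called lower. Without WT SNI 1 or without dKO SNI 2 the 12 became 0, and over all genes 10 and 9 calls were left of 3106. The part of the neuron markers in the levels of these genes was not tested.

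The light chains, which all 3 heavy chains share, moved differently. Myl6 encodes the essential light chain and was the most abundant of the 10 genes. It measured 274 and 243 FPKM in WT and 296 and 359 in dKO after sham surgery, and 350 and 407 in WT and 474 and 598 in dKO after axotomy. It rose after axotomy in dKO (0.70 ± 0.19, adjusted p 0.0136). In WT its change of 0.55 ± 0.19 was not called (0.0659). The dKO call was lost after quantile normalization (0.28, adjusted p 0.138), without dKO sham 1 (0.0960) and without dKO SNI 2 (0.0861). Genotype changes were 0.34 ± 0.19 after sham surgery and 0.49 ± 0.19 after axotomy, neither called (adjusted p 0.553 and 0.0839).

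Myl12a and Myl12b encode nearly identical regulatory light chains and lie 2765 bases apart on the minus strand of chromosome 17 (70993656 to 71002878 and 70973133 to 70990890 in GRCm38). Their coding sequences, both of 516 bases, share 498 bases (96.5%), with a longest identical stretch of 102 bases, so the division of reads between them depends on the authors' counting and is uncertain. Myl12a measured 14.6 and 14.7 FPKM in WT and 16.0 and 21.4 in dKO after sham surgery, and 21.1 and 26.9 in WT and 37.2 and 40.5 in dKO after axotomy. It rose after axotomy in both genotypes (0.67 ± 0.17, adjusted p 0.0206, in WT and 1.03 ± 0.17, adjusted p 0.00113, in dKO). It was also higher in dKO SNI than in WT SNI (0.68 ± 0.17, adjusted p 0.0213). The WT rise was not called without WT sham 1 (0.0915), WT sham 2 (0.103) or WT SNI 2 (0.149), and the genotype call was lost without WT SNI 1 (0.152) or dKO SNI 2 (0.134). Myl12b was far more abundant and nearly level, at 221 and 216 FPKM in WT and 204 and 234 in dKO after sham surgery, and 261 and 263 in WT and 259 and 205 in dKO after axotomy. It was not called in any of the 7 comparisons, and its averaged injury change was 0.17 (interval -0.10 to 0.43; -0.06 after quantile normalization). Myl12a thus rose from 6.20 and 6.38% of the pair's summed FPKM in WT sham to 12.6 and 16.5% in dKO SNI. When the 2 genes were added and tested as 1, the sum was not called in any of the 7 comparisons.

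Of the kinases, Rock1 was higher after axotomy in both genotypes. It measured 3.16 and 3.49 FPKM in WT and 5.19 and 3.66 in dKO after sham surgery, and 4.62 and 6.75 in WT and 7.57 and 8.97 in dKO after axotomy. The rise was 0.61 ± 0.19 in WT (adjusted p 0.0469) and 0.78 ± 0.19 in dKO (0.00859). The WT call was lost in 9 of 18 alternatives, at 0.298 without WT SNI 2, 0.175 without WT sham 1 and 0.139 without WT sham 2. The dKO call was lost without dKO sham 2 (0.0609) or dKO SNI 2 (0.0658). Rock2, its paralog with a coding sequence 65.3% identical, measured 8.03 and 9.33 FPKM in WT and 10.8 and 7.96 in dKO after sham surgery, and 11.8 and 12.7 in WT and 13.1 and 11.5 in dKO after axotomy. Its injury changes of 0.45 ± 0.16 and 0.37 ± 0.16 were not called separately (adjusted p 0.0643 and 0.0768), but the mean of both, 0.41 ± 0.11, was (0.0112). No genotype difference of Rock2 was detected. Its genotype change averaged over surgery was 0.05, with an interval of -0.20 to 0.30. Rock2 exceeded Rock1 in every library, by a ratio between 1.28 in dKO SNI 2 and 2.67 in WT sham 2.

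Mylk, the myosin light chain kinase prominent in smooth muscle, was the least abundant of the 10. It measured 1.04 and 0.894 FPKM in WT and 1.32 and 2.30 in dKO after sham surgery, and 1.25 and 2.62 in WT and 2.82 and 2.27 in dKO after axotomy. WT SNI and dKO sham each spread widely and overlap each other and dKO SNI, while every WT sham value lies below all values of the other groups. Its only call was the averaged injury change (0.45 ± 0.17, adjusted p 0.0478), which was lost in 8 alternatives, 6 of them leaving out 1 library (both WT sham libraries, WT SNI 2, dKO sham 1 and both dKO SNI libraries; adjusted p 0.0668 to 0.161).

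**Figure D3:**
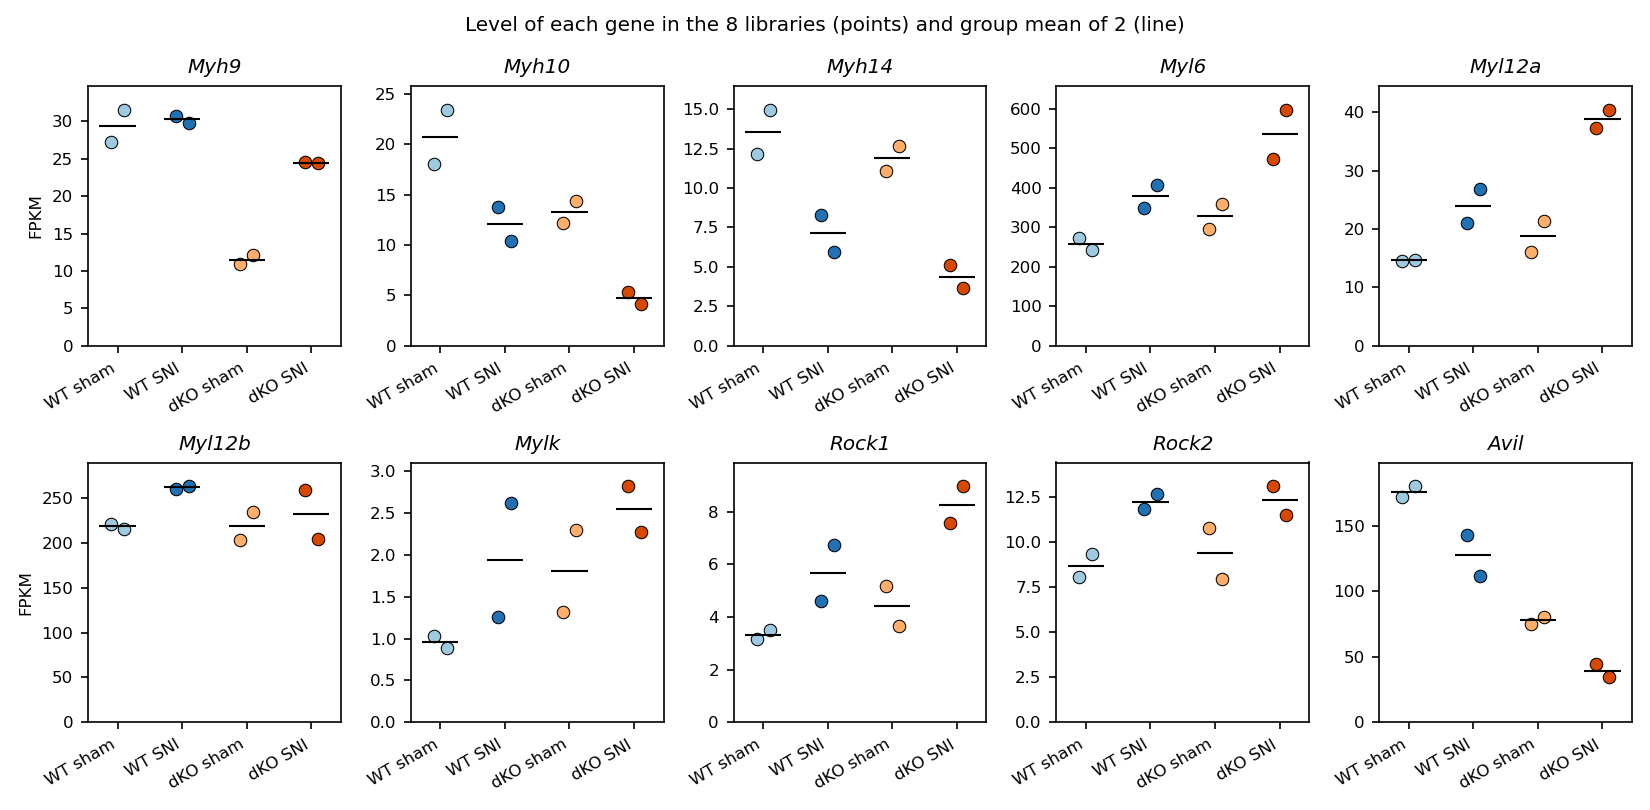
FPKM of each of the 10 genes in the 8 libraries (points) with the mean of each group of 2 (line); every axis starts at 0. Avil falls stepwise from WT sham (172 and 180) to dKO SNI (44.1 and 34.5), Myh9 is low in dKO sham only (10.9 and 12.1), and Myl6, Myl12a and Rock1 are highest in dKO SNI.

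Counted over the 10 genes, the 2 comparisons between genotypes differ in how much of the transcriptome moved with them. In dKO sham against WT sham, 2 of the 10 were called (Myh9 and Avil, both lower), where 0.155% of all tested genes were called, 0.0931% higher and 0.0621% lower. In dKO SNI against WT SNI, 4 were called, Avil, Myh10 and Myh14 lower and Myl12a higher, where 24.1% of genes were called, 10.7% higher and 13.4% lower. Without WT SNI 1 or dKO SNI 2 only Avil among the 10 was called, and the count over all genes fell from 3106 to 10 and 9. Averaged over surgery, 4 were called, with Avil, Myh9 and Myh10 lower and Myl12a higher (0.50 ± 0.12, adjusted p 0.0214 by limma). Over all genes 22.2% were called, 11.8% higher and 10.4% lower. Myl12a was not called without the filter on low values (0.0534). Nor was it called without WT sham 1, WT sham 2, WT SNI 1, dKO sham 2 or dKO SNI 2. The count over all genes there was 2866, and 416 to 1455 without 1 of the same 5 libraries, lowest without dKO sham 2. Both genotype comparisons and both injury comparisons draw on the same 8 libraries, so their counts are not independent of each other.

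In WT SNI against WT sham, 4 of the 10 were called, with Myl12a and Rock1 higher and Myh10 and Myh14 lower. Over all genes 23% were called there (13.6% higher and 9.38% lower). None of these 4 was called without WT sham 2 or without WT SNI 2, and 2 without WT sham 1. Of all called genes 59.3% were higher, and 45.9% after quantile normalization. In dKO SNI against dKO sham, 7 of the 10 were called, with Myh9, Myl6, Myl12a and Rock1 higher and Myh10, Myh14 and Avil lower. Over all genes 48.4% were called there (23.8% higher and 24.6% lower). Averaged over genotype, 9 of the 10 were called, 6 higher and 3 lower, against 55% of all genes (29.5% higher and 25.5% lower). The test of the difference between the injury responses called none of the 10 (limma), with 0.0543% of all genes called. Of the 10, Myh9 and Myh10 had an unadjusted p under 0.05 there.

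**Figure D4:**
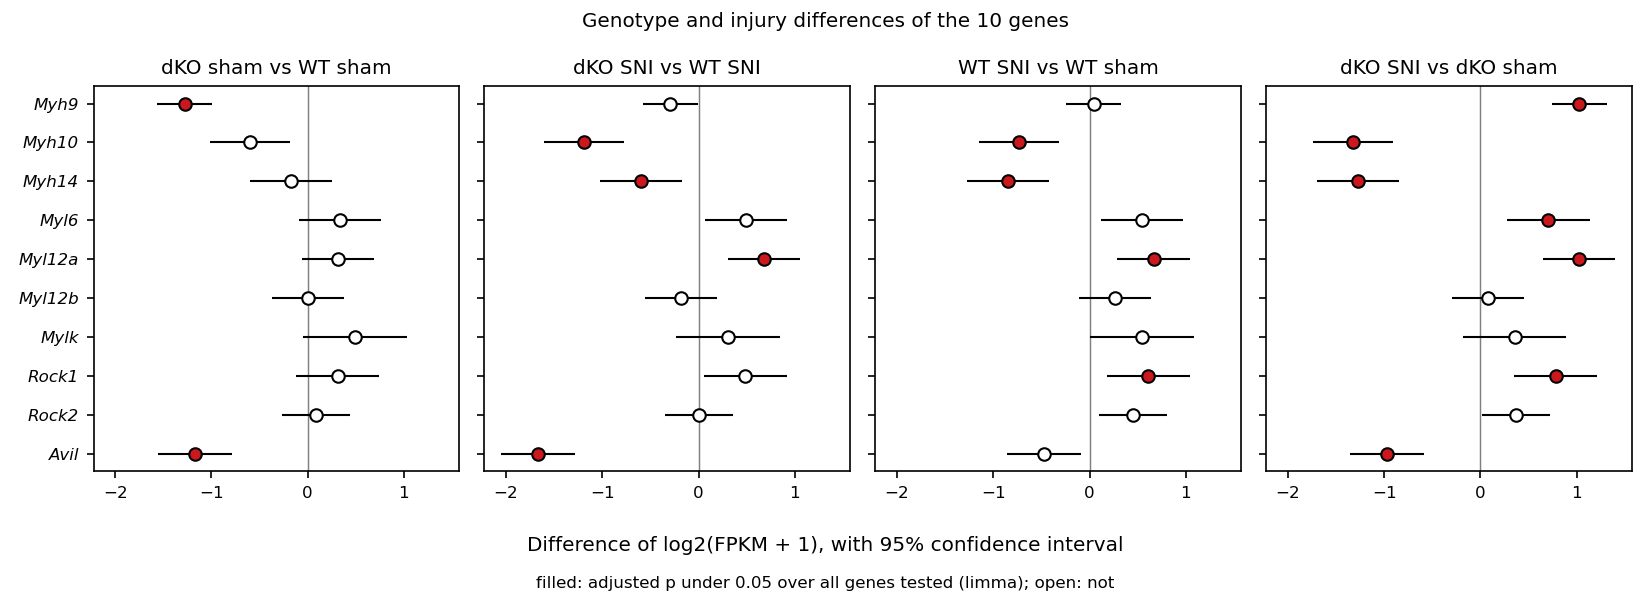
Change of each gene in log2(FPKM + 1) with its 95% confidence interval in 4 comparisons; filled points have an adjusted p under 0.05 over all genes tested (limma), open points do not. Myh9 and Avil are the filled points in dKO sham against WT sham (-1.28 and -1.17), and Myh9 is at 1.03 in the injury comparison within dKO against 0.04 within WT.

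The wider machinery around myosin II was described with 7 lists: small GTPases of actin signalling and their regulators, other light chain kinases, the myosin phosphatase and its inhibitors, filament partners, other ROCK targets, the villin and gelsolin family, and unconventional myosins. Of their 86 genes, 77 were tested. None was called in dKO sham against WT sham by limma, and 9 had an unadjusted p under 0.05. In dKO SNI against WT SNI 10 were higher and 10 lower (26%, beside 24.1% of all genes). Averaged over surgery the counts were 7 higher and 10 lower (22.1%, beside 22.2%), and the averaged injury response called 29 higher and 19 lower (62.3%, beside 55%). In the difference of the injury responses none was called, and 12 had an unadjusted p under 0.05.

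After axotomy, averaged over genotype, 7 of 15 genes of the GTPase list were higher and 3 lower (median change 0.15, beside 0.04 over all genes). In this comparison 29.5% of all tested genes were called higher and 25.5% lower, the shares to set beside each list count below. The GTPase Rhoc (1.57 ± 0.11) rose from 37.6 and 32.3 FPKM in WT sham to 131 and 124 in WT SNI, and from 43.1 and 52.9 in dKO sham to 117 and 123 in dKO SNI. Every SNI library of Rhoc lies above every sham library. The antagonist GTPase Rnd1 (1.46 ± 0.13) and the microtubule-bound exchange factor Arhgef2 (1.11 ± 0.09) rose as well, while the exchange factor Arhgef11 (-0.93 ± 0.13) and the GTPase-activating protein Arhgap35 (-0.79 ± 0.10) fell. Among 9 other light chain kinases 2 were higher and 4 lower. The death-associated kinase Dapk1 fell (-0.73 ± 0.09), and so did Cdc42bpa, which encodes MRCK alpha (-0.49 ± 0.09), while Pak2 rose (0.44 ± 0.09). Of 8 phosphatase genes 3 were higher and 1 lower, with the targeting subunit Ppp1r12a at 0.50 ± 0.10 and the inhibitor Ppp1r14b at 0.53 ± 0.10.

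Filament partners gave 6 higher and 3 lower of 15 after axotomy, where 29.5% of all genes were called higher and 25.5% lower. The 3 with the smallest p were calponin 2 (Cnn2, 1.11 ± 0.15), tropomyosin 4 (Tpm4, 1.08 ± 0.10) and anillin (Anln, 0.57 ± 0.09), a scaffold of the cytokinetic ring. S100a4 rose by more than Anln (0.78 ± 0.18, adjusted p 0.00561). Of 12 other ROCK targets and cofilin regulators 3 were higher and 2 lower. LIM kinase 1 (Limk1), which phosphorylates cofilin, fell by 1.08 ± 0.12 on the log2 scale and Dpysl2 (CRMP2) changed by -0.51 ± 0.13, whereas Marcks rose (0.88 ± 0.09). Of the 5 tested relatives of Avil, gelsolin (Gsn, 0.58 ± 0.12) and Capg (0.46 ± 0.14) rose, and Flii (-0.44 ± 0.11) and scinderin (Scin, -0.94 ± 0.15) fell. Capg lost its call without WT sham 2, WT SNI 2, dKO sham 1 or dKO SNI 2, and without the filter on low values. Unconventional myosins gave 6 higher and 4 lower of 13. Myo1f (1.54 ± 0.17) and Myo1g (1.23 ± 0.15), which are typical of leukocytes, rose as well. Of the macrophage markers 12 of 12 were higher, and of the neutrophil markers 10 of 10. Myo10, the filopodial myosin, rose (0.99 ± 0.10), and Myo1e fell (-1.52 ± 0.12).

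Between genotypes, averaged over surgery, the filament partners S100a4 (1.04 ± 0.18), a calcium sensor that binds the tail of IIA, and Cnn2 (0.87 ± 0.15) were higher in dKO under every alternative. Tpm4 (0.37 ± 0.10) was the third of this list, and no member was lower. Its call was lost without any library other than WT SNI 2 or dKO SNI 1. In the same comparison the macrophage list had 10 of 12 genes higher, the neutrophil list 9 of 10 and the fibroblast list 6 of 8. Over all genes 11.8% were called higher. Myo1e was lower (-0.72 ± 0.12) and kept that call under every alternative. Myo1f (0.81 ± 0.17) and Myo1g (0.77 ± 0.15) were higher. Both lost the call without WT SNI 1 or dKO sham 2. Myo1f also lost it without the filter on low values, and Myo1g without WT sham 2 or dKO SNI 2. Arhgap35 was lower (-0.58 ± 0.10; not called without WT sham 2). None of the 5 relatives of Avil was called by limma, although all 5 had an unadjusted p under 0.05. Gsn changed by 0.34 ± 0.12 (adjusted p 0.0669) and Flii by -0.32 ± 0.11 (0.0577). Of 6 tested muscle myosin chains only Myl9, the smooth muscle regulatory light chain, was higher in dKO (0.76 ± 0.15; not called without WT sham 2 or WT SNI 1). The skeletal light chains Mylpf (72.6 FPKM) and Myl1 (54.3 FPKM) were high in WT sham 2, with at most 5.57 and 2.01 FPKM in the other 7 libraries.

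The genes whose pattern over the 8 libraries was most like that of each target were listed by Pearson correlation of log2(FPKM + 1), given as a description. Those most like Avil were Nub1 (r = 0.986), Tmem158 (0.985), Stk25 (0.983), Anxa6 (0.980) and Lifr (0.977). Their range was narrower than that of Avil: Anxa6 ran from 198 FPKM in WT sham 2 to 75.4 in dKO SNI 2, and Nub1 from 33.3 to 24.6. Those most like Myh10 were Ctif (0.995), Tom1l2, Trim32, Ttbk1 and Clip4 (0.993). Ctif fell from 21.2 and 26.2 FPKM in WT sham to 7.30 and 5.49 in dKO SNI. Myh9 had no match as close. Its nearest were Mfsd1 (0.904), Sfxn3 (0.904), Zfp180 (0.895), Car4 (0.889) and Nkap (0.880), and Mfsd1 moved only between 13.1 and 20.1 FPKM. The 8 points share groups, so these values rank genes and test nothing.

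The nearest tested genes on either side of Avil, Myh9 and Myh10 were read to see whether the genotype differences extended to them. Some of them lie far away, at gaps of up to 3259504 bases. Ctdsp2 ends 733 bases before Avil. Tsfm lies on the opposite strand and overlaps it by annotation, and since the sources used here do not say whether the counting used strand, reads of that overlap cannot be assigned. Ctdsp2 measured 12.6 and 12.1 FPKM in WT sham and 10.0 and 12.7 in dKO sham. Tsfm measured 4.92 and 7.40 FPKM in WT sham and 5.43 and 6.55 in dKO sham. Ctdsp2 changed by -0.12 and 0.20 between genotypes after sham surgery and axotomy, and Tsfm by -0.02 and -0.42, none of them called. Of the 6 nearest tested genes around Avil, Fam19a2 alone was called between genotypes after axotomy (-0.70, adjusted p 0.0445 by limma). That gene lies 3259504 bases from Avil, and it was lower after axotomy in both genotypes (-0.89 in WT and -1.24 in dKO). Its genotype call was lost without any WT library or dKO SNI 2, and without the filter on low values. None of the 18 neighbours was called in dKO sham against WT sham by limma. Around Myh9 none was called after sham surgery or after axotomy, and Apol11b (0.88 and 0.97) had the widest differences. Averaged over surgery, 3 of the 18 neighbours were called: Fam19a2 lower (-0.53, adjusted p 0.0399), Apol11b higher (0.92, adjusted p 0.0463) and Rpl26 higher (0.77, adjusted p 0.0256). These calls were lost in 7 of 16, 9 of 17 and 5 of 17 alternatives, each of them without WT sham 2, WT SNI 1 or dKO sham 2. Around Myh10, Ntn1 (0.87, adjusted p 0.0298) and Rpl26 (1.05, adjusted p 0.0254) were higher in dKO SNI than in WT SNI, calls lost like nearly all others without WT SNI 1 or dKO SNI 2, while Ndel1, 4801 bases away, changed by -0.10 and -0.38 without a call.

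**Figure D5:**
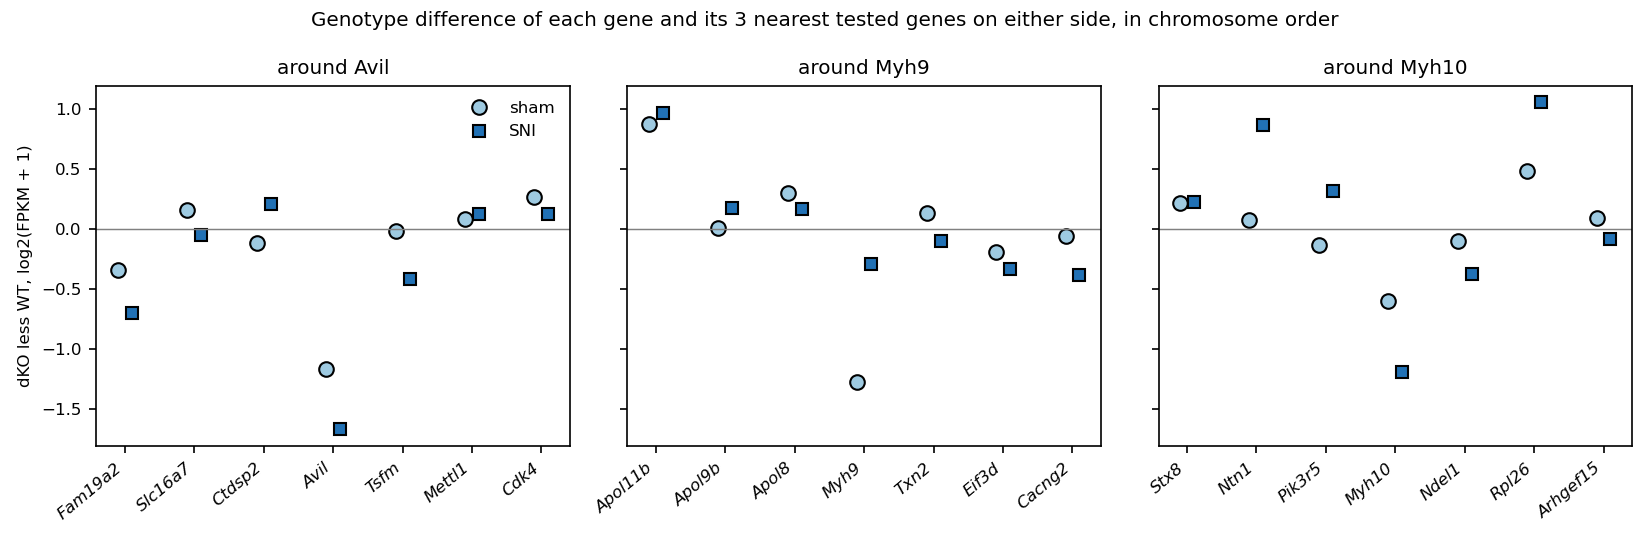
Genotype difference (dKO less WT, log2(FPKM + 1)) of Avil, Myh9 and Myh10 and of the 3 nearest tested genes on either side, in chromosome order, after sham surgery (circles) and axotomy (squares). Avil (-1.17 and -1.67) and Myh10 (-0.60 and -1.19) lie below all their neighbours in both conditions, and Myh9 does so after sham surgery (-1.28).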

How the data were processed

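RNA of lumbar ganglia was sequenced from paired-end TruSeq libraries, per the labels' protocols. The submitters' processing notes list the builds mm10 and GRCm38.p4 and the tools HISAT2 2.0.4, StringTie 1.3.0 and edgeR. Not given in the sources used here are the annotation, the strand setting, the treatment of multiply mapped reads and any later scaling. The deposited values are FPKM per gene symbol and library, as the authors computed them, and all 8 value columns were matched to samples by name. Read totals are unknown. FPKM sums were 278310 to 339920 per library, and 11696 to 12478 genes reached 1 FPKM. Ratios of low values between WT sham 1 and each other library were sorted into narrow bins, and the fullest bin held 2.38 to 8.66% of them. This does not settle whether low values stand on whole reads. The values are FPKM and not counts, so no count model was run, and the counting error of a value is unknown. FPKM divides by a library total, so a few abundant transcripts lower all others.

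A gene was tested if 2 or more libraries reached 1 FPKM. The fit was made with limma 3.58.1 (R 4.3.3) on log2(FPKM + 1). All 8 libraries entered with a separate mean for each of the 4 groups, leaving 4 residual degrees of freedom, and variances were moderated toward a trend on the mean. Two-sided p-values were adjusted by Benjamini-Hochberg over 12884 genes, with a threshold of 0.05. The script was tested on simulated data. With 2 libraries on each side the smallest p of an exact permutation test is 0.333, so none was used. The 7 comparisons were the 2 injury and the 2 genotype comparisons, the difference of the injury responses, and the genotype and injury effects averaged over the other factor. Replicate libraries correlated at r = 0.984 to 0.989 over genes.

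The 10 genes, the lists and the tests were chosen with earlier results of these data known. Besides the 10, the genes named were set by rule: from each pathway list, genes among the 3 with the smallest p in each averaged comparison, the first 2 genes of a marker list (1 marker gene is not reported here), the 5 genes most correlated with Avil, Myh9 and Myh10, and their 3 nearest tested neighbours on each side in GENCODE vM21. Coding sequences were taken from the same annotation. Alternatives covered the pseudocount, the filter, 2 scalings, moderation, fewer groups, a replicate block, Myl12a and Myl12b summed, and leaving out each library. Of 234 list entries, 233 were matched in the table.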

Additional observations from a re-analysis of the deposited data

Results flagged for a closer look

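In none of the 10 genes did the difference between the 2 injury responses pass the threshold. Among the other genes named by rule it did in 3. The Y-linked genes Ddx3y and Eif2s3y differed between the injury responses by 7.06 and 7.63 on the log2 scale (limma, adjusted p 3.81e-08 and 3.79e-08); they were at or near 0 in WT SNI and dKO sham and present in WT sham and dKO SNI. Ddx3y measured 8.05 and 8.12 FPKM in WT and 0 and 0.0109 in dKO after sham surgery, and 0 and 0 in WT and 13.6 and 13.9 in dKO after axotomy. The melanocyte enzyme gene Tyrp1 differed by -3.17 (adjusted p 5.93e-05). It measured 3.61 and 4.36 FPKM in WT and 25.6 and 23.5 in dKO after sham surgery, and 16.9 and 16.7 in WT and 9.83 and 8.53 in dKO after axotomy, so it was high in the 4 libraries without Y-linked transcripts. Genotype, injury and the Y-linked division cannot be told apart in this contrast.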

How the results depend on the processing

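Of 70 results (10 genes in 7 comparisons), 30 were called, 17 of them under every alternative that kept the gene separate. Of the 40 others, 30 were not called under any. The alternative that summed Myl12a and Myl12b holds neither gene by itself, and their sum was not called in any comparison. No called change reversed its direction. The number of the 10 genes called in WT SNI vs WT sham went from 4 to 2 without the filter on low values and ranged from 0 to 6 when 1 library was left out. In dKO sham vs WT sham it went from 2 to 1 without the filter and ranged from 0 to 2 when 1 library was left out. Leaving out 1 library gave 1 to 5 in dKO SNI vs WT SNI, 3 to 7 averaged over surgery, 5 to 7 in dKO SNI vs dKO sham, 8 to 9 in the averaged injury response and 0 in the difference of the injury responses. Where a comparison kept 1 library of a group, that library was assumed to vary like the other groups.

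Same-numbered libraries did not deviate together across all groups, and the labels do not pair them. Correlations of the replicate differences between groups ran from -0.188 (WT sham with dKO SNI) to 0.254 (WT SNI with dKO SNI). With a replicate block 3 and 7 of the 10 were called for injury in WT and in dKO, 2 and 3 between genotypes after sham surgery and axotomy, 0 for the difference, 4 for genotype averaged over surgery and 9 for averaged injury. Rock1 in WT SNI vs WT sham (adjusted p 0.0504) and Myh14 in dKO SNI vs WT SNI (0.0524) were not called under the block. Over all genes the block called 47 instead of 20 in dKO sham vs WT sham and 12 instead of 7 in the difference of the injury responses.

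Over all genes, a mean of at least 5 FPKM tested 7630 genes and called 1869 for injury in WT, 3880 for injury in dKO, 3 for the difference and 4337 for averaged injury. Without the filter 17956 genes were tested, with 6 called in dKO sham vs WT sham, 1892 in dKO SNI vs WT SNI and 1142 averaged over surgery. In dKO sham vs WT sham a pseudocount of 0.1 called 55 and fitting only the groups compared called 32. Leaving out 1 library called as few as 1099 (without WT sham 2) in WT SNI vs WT sham, 3712 (without dKO SNI 2) in dKO SNI vs dKO sham, and 9 (without dKO sham 2) or 31 (without WT sham 1) in dKO sham vs WT sham. Depth cannot be read from FPKM, so what it limits is unknown.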
